A study of Arabidopsis thaliana with 4 samples.

Results

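Class III peroxidases are secreted haem enzymes of plants, encoded by 73 loci in Arabidopsis thaliana. The genes described here are 55 of these loci, taken by locus code as the family without its root hair and defence members. Of the 55, 44 had a probe set that the platform's table assigns to that gene alone, out of 13333 genes with such a probe set, and each of the 44 had 1. A further 7 loci were read only by probe sets shared with another gene, and for 4 loci, among them RCI3 and PER64, no named probe set was used here.

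The arrays compared roots of 3-week-old Col-0 seedlings after 5 hours at low oxygen with roots after 5 hours at normal oxygen. Low oxygen canisters held a gas mixture with 0.1% oxygen and were flushed and sealed, while normal oxygen canisters were neither, so oxygen cannot be told apart from flushing and sealing. Both groups had first spent 24 hours in liquid medium with 3% sucrose, and both were kept under foil during the treatment. Each group had 2 biological replicates, each a pool of 5 seedlings from 1 dish, and the labels name only the accession Col-0 for both groups, with no mutation or transgene.

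In these enzymes hydrogen peroxide oxidises the haem, which then takes electrons from phenolic compounds in the cell wall. The phenolic radicals couple to form lignin, or link wall proteins and polysaccharides to each other and stiffen the wall. The same enzymes can also produce reactive oxygen species, and their known sites of action in roots include xylem vessels and the Casparian strip of the endodermis.

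Values are log2 expression values made by RMA, in which 1 unit is a 2-fold difference, with array medians over the 22746 probe sets tested between 6.33 and 6.36. The number of arrays limits the precision. RMA values carry no detection call, and a level below 6 is treated here as dim, with no fold change given for a gene whose mean lies below 6 in either group. Each difference is low minus normal oxygen from limma's test over all probe sets, and "rose" and "fell" are used only where the Benjamini-Hochberg adjusted p was under 0.05. In whole roots, fewer cells of a type and less RNA per cell cannot be told apart.

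All 4 low oxygen marker genes with a probe set of their own, of 14 listed, rose by between 2.41 and 7.39. This list, like the others, was chosen with earlier results of these data known, so it is no independent check of the treatment. Of the 7 listed root hair markers, 2 were measured: EXPA7 stood at 7.35 and 7.37 at low oxygen, against 10.08 and 9.65 at normal oxygen, and EXPA18 at 7.58 and 6.70, against 10.69 and 10.65. The single measured shoot marker of 12, RCA, was at 8.14 and 8.37 in low oxygen roots and at 7.11 and 6.79 in normal oxygen roots, and none of the 10 listed xylem vessel markers had a named probe set. A control probe set, that of 25S ribosomal RNA, stood at 12.94 and 12.74 on the low oxygen arrays and at 6.54 and 7.26 on the normal oxygen arrays, while that of 5S ribosomal RNA was dim in both groups, at 3.51 and 3.45 on the low oxygen arrays and at 3.44 and 3.51 on the normal oxygen arrays. The shifts of EXPA7, EXPA18, RCA and 25S ribosomal RNA moved with the groups, and their part in the peroxidase results was not tested.

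Most of the measured peroxidase transcripts that changed were lower at low oxygen. Of the 44, 22 fell, 5 rose and 17 did not pass, so that 61.4% of the members were called. Over the 13333 genes with a probe set of their own, 30.6% were called: 16.3% of the 13333 fell and 14.3% rose. Over all 22746 probe sets 33.4% were called, and 17.6% of the 22746 were lower and 15.8% higher. At least a 2-fold change accompanied the call for 10 falls and 2 rises, where 4.63% of the 13333 genes had such a fall and 4.49% such a rise. The median log2 change of the 44 was -0.37 and their quartiles were -0.88 and 0.00. For the 13333 genes the median was 0.00, with quartiles of -0.20 and 0.17.

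**Figure D1:**
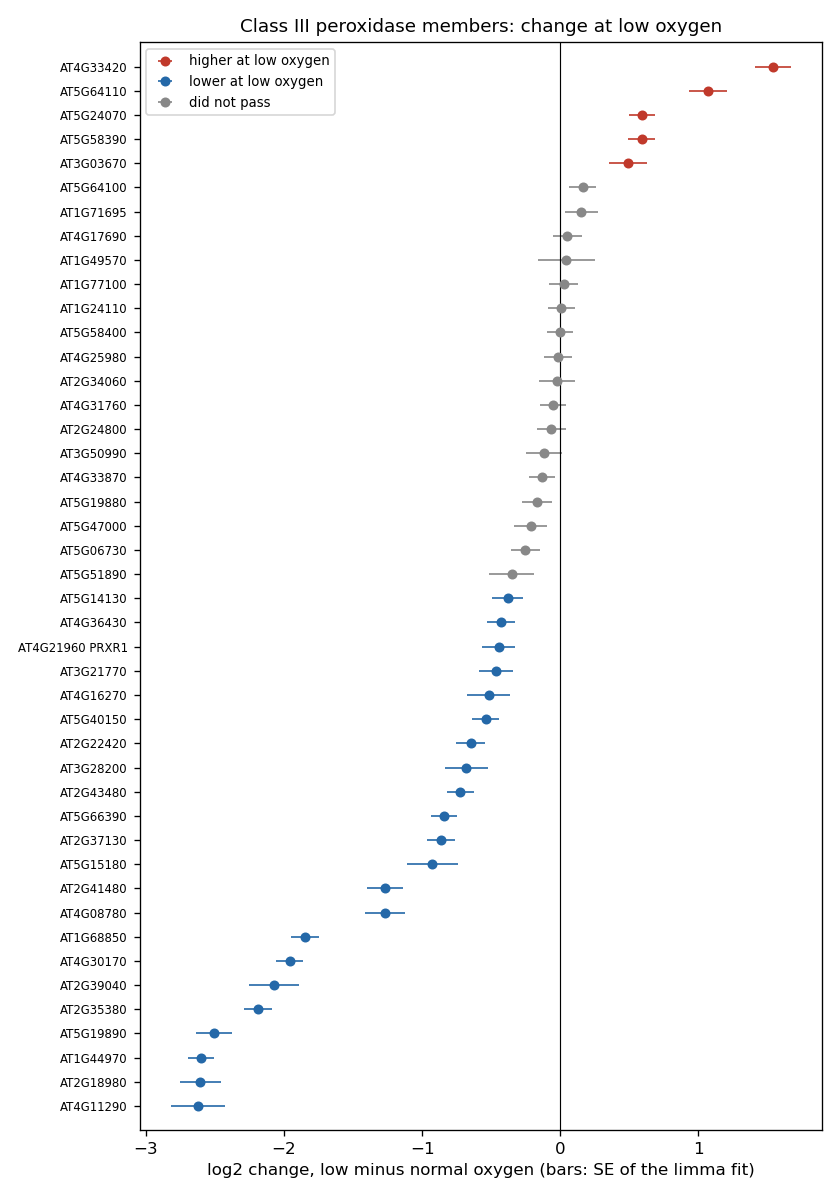
The log2 change, low minus normal oxygen, of each of the 44 measured class III peroxidase genes, ordered by size; bars are the SE of the limma fit with 2 arrays per group, and colours give the direction of the call. The changes run from -2.62 for AT4G11290 to 1.54 for AT4G33420, with 22 falls, 17 genes that did not pass and 5 rises.

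Level and call went together in these genes, as they did over the array. Of the 25 members with a mean of at least 6 over the 4 arrays, 17 fell and 3 rose, where 24.3% of all 6538 genes at that level fell and 22.9% rose. Of the 19 members with a mean under 6, 5 fell and 2 rose, where 8.64% and 5.93% of 6795 genes did. The median change was -0.68 in the first group of members and -0.06 in the second.

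**Figure D2:**
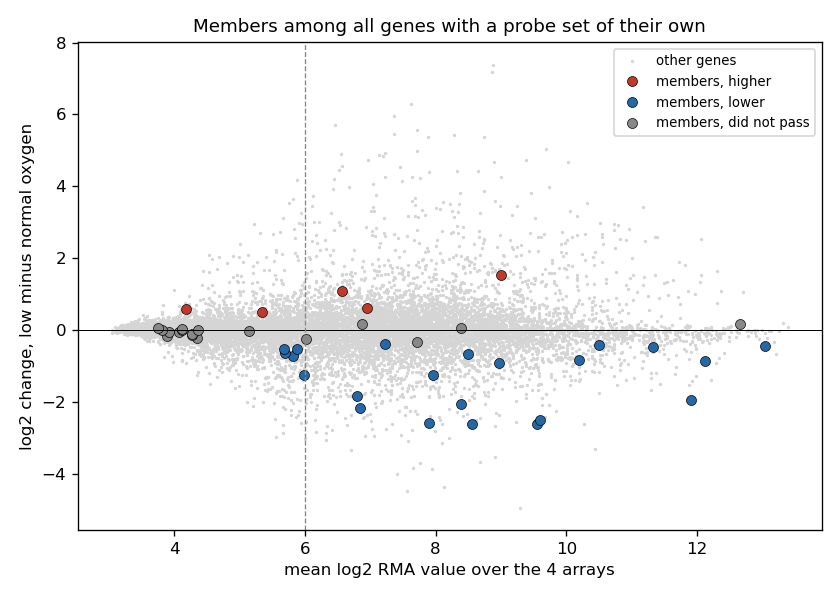
Mean log2 RMA value over the 4 arrays (horizontal) against the log2 change, low minus normal oxygen (vertical), for the 44 members (large points, coloured by call) and the other genes with a probe set of their own (grey); the dashed line marks a mean of 6. Members to the right of the line lie mostly below 0, with 17 falls among 25.

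The members with the largest falls came down by similar amounts. AT4G11290 was at 7.54 and 6.95 in low oxygen roots and at 9.75 and 9.99 in normal oxygen roots, a 6.17-fold fall (log2 change -2.62, SE 0.20, adjusted p = 1.3e-04). AT2G18980 stood at 8.45 and 8.04 at low oxygen, against 10.90 and 10.81 at normal oxygen, and was 6.09-fold lower (log2 change -2.61, SE 0.15, adjusted p = 4.4e-05). For both genes the low oxygen arrays lay more than 2 units below the normal oxygen arrays, and replicate 2 was the lower low oxygen array. AT1G44970 stood at 6.64 and 6.57 at low oxygen and at 9.21 and 9.20 at normal oxygen, a 6.07-fold fall (log2 change -2.60, SE 0.10, adjusted p = 1.0e-05). This gene is known, with AT4G16270, for cross-linking extensin wall proteins in the tapetum of the anther. AT5G19890 was at 8.48 and 8.20 in low oxygen roots, against 10.77 and 10.93 in normal oxygen roots, and fell 5.69-fold (log2 change -2.51, SE 0.13, adjusted p = 3.0e-05).

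The next 4 falls were between 1.85 and 2.19 on the log2 scale. AT2G35380 had values of 5.79 and 5.71 at low oxygen and of 7.99 and 7.87 at normal oxygen (log2 change -2.19, SE 0.10, adjusted p = 2.1e-05). AT1G68850 showed a like picture, with 5.93 and 5.80 at low oxygen, against 7.68 and 7.75 at normal oxygen (log2 change -1.85, SE 0.10, adjusted p = 4.0e-05). Both genes were dim in low oxygen roots and above 7 in normal oxygen roots. AT2G39040 stood at 7.58 and 7.13 in low oxygen roots and at 9.59 and 9.26 in normal oxygen roots, a 4.20-fold fall (log2 change -2.07, SE 0.18, adjusted p = 2.3e-04). AT4G30170 was at 10.96 and 10.90 at low oxygen and at 12.94 and 12.84 at normal oxygen, a 3.89-fold fall (log2 change -1.96, SE 0.10, adjusted p = 2.9e-05). Its probe set was thus bright in both groups, and its replicates were close to each other in each.

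**Figure D3:**
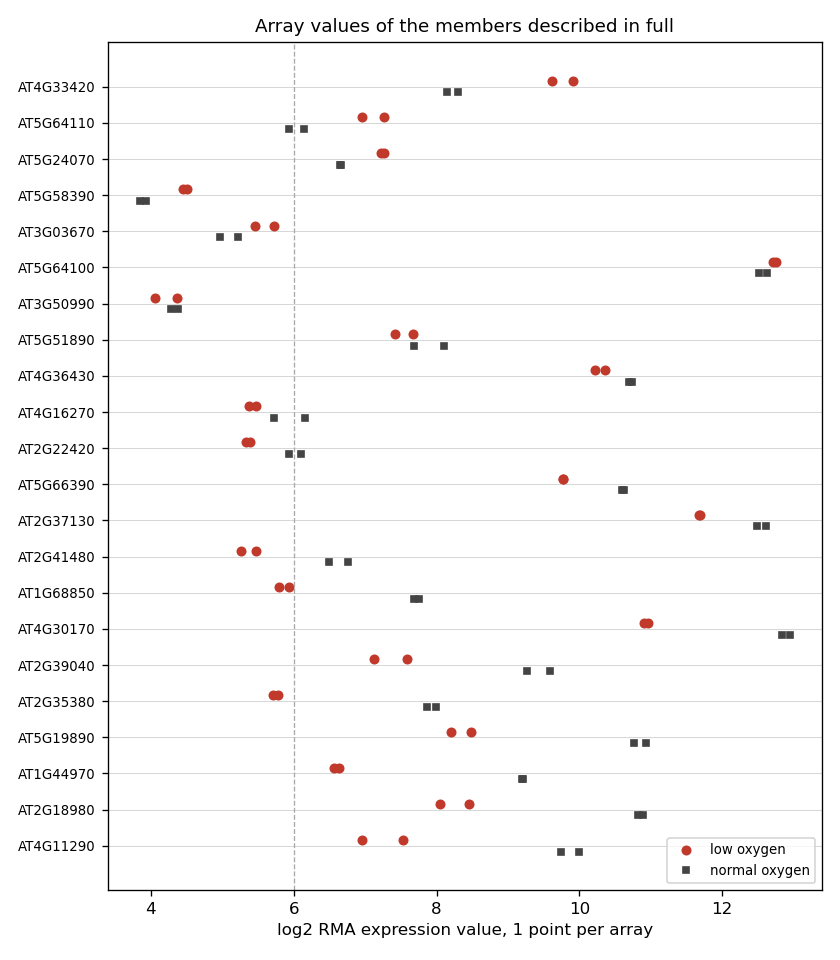
Log2 RMA values of the 22 members described with all array values, 1 point per array, with low oxygen arrays as circles above the normal oxygen arrays as squares for each gene; the dashed line marks a value of 6. The circles lie left of the squares for each of the 14 genes that fell and right of them for each of the 5 that rose, and the groups overlap for AT3G50990.

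The 5 rises were smaller, and none reached 2 units. AT4G33420, a peroxidase known from xylem vessels and their lignification, stood at 9.92 and 9.62 in low oxygen roots, against 8.15 and 8.30 in normal oxygen roots, and rose 2.91-fold (log2 change 1.54, SE 0.13, adjusted p = 2.1e-04). AT5G64110 had 6.96 and 7.26 at low oxygen and 6.15 and 5.93 at normal oxygen, a 2.10-fold rise (log2 change 1.07, SE 0.14, adjusted p = 0.0013). These were the members with a rise of at least 2-fold. AT5G24070 was at 7.23 and 7.27 at low oxygen and at 6.65 and 6.66 at normal oxygen, and rose 1.51-fold (SE of the log2 change 0.09, adjusted p = 0.0032). The remaining pair was dim in both groups. AT5G58390 stood at 4.45 and 4.51 at low oxygen, against 3.94 and 3.85 at normal oxygen (log2 change 0.59, adjusted p = 0.0039). AT3G03670 was at 5.73 and 5.46, against 4.97 and 5.22 (log2 change 0.49, SE 0.14, adjusted p = 0.0326), and this call ended without low oxygen replicate 1 (0.36, adjusted p = 0.1771) and without normal oxygen replicate 1 (0.37, adjusted p = 0.1174).

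Peroxidases known from lignin formation did not move one way. Of the 8 listed, 6 were measured: 4 fell, AT4G33420 rose, and AT5G51890 did not pass. Of all 44 members 22 fell and 5 rose, and of the 13333 genes 16.3% fell and 14.3% rose. PRX25 (AT2G41480), which takes part in stem lignification, was at 5.26 and 5.47 in low oxygen roots and at 6.76 and 6.50 in normal oxygen roots (log2 change -1.27, SE 0.13, adjusted p = 4.9e-04). PRX72 (AT5G66390), also a stem lignin peroxidase, stood at 9.77 on both low oxygen arrays and at 10.63 and 10.60 on the normal oxygen arrays, a 1.79-fold fall (adjusted p = 6.7e-04). For both genes the groups lay well apart. AT2G22420, known from lignified tissues, had 5.34 and 5.39 at low oxygen and 5.93 and 6.10 at normal oxygen (log2 change -0.65, adjusted p = 0.0035). AT4G36430 was at 10.22 and 10.35 at low oxygen, against 10.74 and 10.69 at normal oxygen (log2 change -0.43, adjusted p = 0.0174). This small fall lost its call without low oxygen replicate 1 (-0.36, adjusted p = 0.1022) and without normal oxygen replicate 1 (-0.41, adjusted p = 0.0586).

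AT5G51890, which like AT4G33420 is known from xylem vessels, was at 7.42 and 7.66 in low oxygen roots and at 8.11 and 7.68 in normal oxygen roots. Its log2 change was -0.35 (95% interval -0.74 to 0.04, adjusted p = 0.1624) and did not pass. The size depended on single arrays: it was -0.56 without normal oxygen replicate 2 and -0.14 without normal oxygen replicate 1. Leaving out normal oxygen replicate 2 was the only alternative in which the fall was called. Whether the changes of these xylem genes differ from each other was not tested.

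Of the 4 members listed for reproductive or seed walls, 3 fell, where 22 of all 44 members and 16.3% of the 13333 genes did. AT1G44970 and AT2G18980, which is linked to seed germination, are described above. AT4G16270, the tapetum partner of AT1G44970, stood at 5.38 and 5.47 at low oxygen and at 6.16 and 5.72 at normal oxygen (log2 change -0.52, SE 0.15, adjusted p = 0.0405). The fall of AT4G16270 was not called when any 1 of 3 arrays was left out, with adjusted p = 0.1798 without low oxygen replicate 1, 0.1254 without low oxygen replicate 2 and 0.1385 without normal oxygen replicate 1. PER36 (AT3G50990), which acts in seed coat mucilage release, was near the bottom of the scale in both groups, at 4.06 and 4.37 at low oxygen and 4.28 and 4.39 at normal oxygen (adjusted p = 0.5750).

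Of the 3 members listed for stress and nutrient responses, 2 were measured, and both probe sets were bright. AT2G37130 had 11.68 and 11.69 in low oxygen roots, against 12.61 and 12.48 in normal oxygen roots, a 1.82-fold fall (SE of the log2 change 0.10, adjusted p = 7.9e-04). AT5G64100 stood at 12.72 and 12.75 at low oxygen and at 12.62 and 12.52 at normal oxygen, with a log2 change of 0.16 (95% interval -0.07 to 0.40, adjusted p = 0.2761). Its groups did not overlap, but the difference did not pass.

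The other 8 falls lay between -0.38 and -1.27. AT4G08780 was at 7.25 and 7.41 at low oxygen and at 8.41 and 8.79 at normal oxygen, a 2.41-fold fall (adjusted p = 7.9e-04). AT5G15180 had 8.21 and 8.78 at low oxygen, against 9.39 and 9.46 at normal oxygen (log2 change -0.93, adjusted p = 0.0083), and its low oxygen arrays were among the less alike. AT2G43480, AT3G28200 and AT5G40150 fell by 0.72, 0.68 and 0.54 on the log2 scale. The falls of AT3G21770 (-0.46), PRXR1 (-0.45) and AT5G14130 (-0.38) were the smallest of the 8. Each of these 3 lost its call in at least 1 fit that left out an array, as AT3G28200 did without low oxygen replicate 1. AT5G14130 also lost its call with the trend and robust prior and with median centring, and PRXR1 with a repeated quantile normalization. PRXR1 (AT4G21960) was at 12.80 and 12.82 in low oxygen roots and at 13.39 and 13.11 in normal oxygen roots, so the smallest falls included bright probe sets.

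Leaving out each array in turn kept 20 of the 27 calls every time, of which 16 were falls and 4 were rises, and no call changed direction. The 7 calls lost at least once were those of AT3G03670, AT4G16270, AT4G36430, AT5G14130, PRXR1, AT3G28200 and AT3G21770, with log2 changes between -0.68 and 0.49. The call gained in such a fit was that of AT5G51890, without normal oxygen replicate 2. The largest difference between replicates of any member was 0.67 at low oxygen (AT1G49570) and 0.44 at normal oxygen (AT4G16270). The median difference was 0.11 and 0.12.

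Among the 17 genes that did not pass, the log2 changes ran from -0.35 to 0.16, and the groups overlapped for 10. Of these genes, 12 had a mean under 6 over the 4 arrays, with 95% intervals that stayed within -0.50 and 0.30. They were AT1G24110, AT1G77100, AT2G24800, AT2G34060, PER36, AT4G17690, AT4G25980, AT4G31760, AT4G33870, AT5G19880, AT5G47000 and AT5G58400. A dim probe set can hide a change, so their intervals describe RMA values and not transcript amounts. The other 5 were AT5G51890 and AT5G64100, described above, with AT5G06730 (-0.25), AT1G49570 (0.04) and AT1G71695 (0.15). AT1G49570 stood at 8.08 and 8.75 at low oxygen, against 8.41 and 8.33 at normal oxygen, so its low oxygen arrays lay on either side of the normal oxygen values. The groups did not overlap for 34 of the 44 members (77.3%), against 62.2% of the 13333 genes.

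Several members are next to another peroxidase gene in the order of protein-coding genes in the RefSeq table of TAIR10.1, and the values of such neighbours are set side by side here. AT5G19890 fell by 2.51 on the log2 scale, while its neighbour AT5G19880 was dim, at 3.75 and 3.86 at low oxygen and at 4.06 and 3.89 at normal oxygen (adjusted p = 0.3167). AT5G58390 rose by 0.59, while AT5G58400 was at 4.41 and 4.33 at low oxygen and at 4.39 and 4.36 at normal oxygen. In the row of AT5G64100, AT5G64110 and AT5G64120, the log2 changes were 0.16, 1.07 and 0.64, of which the middle gene's passed. AT5G64120 is a defence peroxidase outside the 55, and its normal oxygen arrays were apart, at 9.64 and 8.77, against 9.69 and 9.99 at low oxygen (adjusted p = 0.1226). AT4G08780 had a change of -1.27 and its neighbour Prx37 (AT4G08770), also outside the 55, one of -0.38 (adjusted p = 0.1834). The differences between neighbours were not tested, and with 2 arrays per group an exact permutation test cannot go below p = 0.333.

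**Figure D4:**
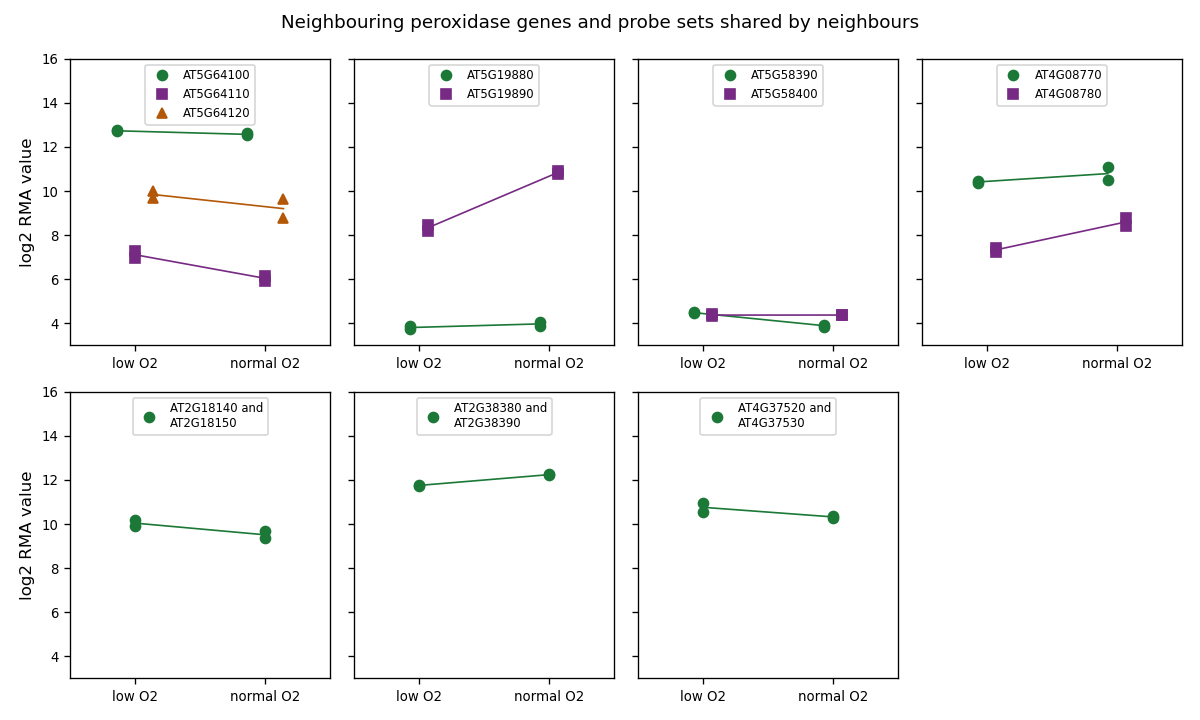
Log2 RMA values on the low oxygen arrays (left in each panel) and the normal oxygen arrays (right) for 4 sets of neighbouring peroxidase genes and for 3 probe sets that each read a pair of neighbours; points are arrays and lines join the group means. AT5G19890 is lower at low oxygen while AT5G19880 stays near 4, and the shared probe sets had log2 changes of 0.53, -0.49 and 0.44, of which the first 2 passed.

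The rest of the family gives a point of comparison. Of its 18 root hair and defence loci, 11 were measured, of which 7 fell and 2 rose. Over the 13333 genes, 16.3% fell and 14.3% rose. A mean of at least 6 was found for 10 of the 11, and of the 6538 genes at that level 24.3% fell and 22.9% rose. The rises of AT5G39580 (4.72) and AT1G14550 (3.43) and the falls of AT1G34510 (-4.96) and AT1G30870 (-3.31) were larger than any change among the 44 members, which stayed within -2.62 and 1.54. The SD of the log2 changes over genes was 0.99 for the 44 and 2.80 for the 11, a description of the listed genes that was not tested. The sets also differed in level, with a mean under 6 for 19 of the 44 and for 1 of the 11. Among the 25 members with a mean of at least 6 the SD was 1.18.

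Few genes of the pathways around these enzymes had a named probe set. Of 10 NADPH oxidase genes, which supply superoxide for hydrogen peroxide outside the cell, 3 were measured, and 2 fell and 1 rose. Over the 13333 genes, 16.3% fell and 14.3% rose. AT4G25090 was at 7.40 and 6.85 at low oxygen and at 8.97 and 9.01 at normal oxygen (log2 change -1.87, adjusted p = 3.6e-04). AT1G19230 had a change of -1.10 (adjusted p = 0.0022), and AT4G11230 rose by 0.78 (adjusted p = 0.0068). Thus the measured oxidase genes changed in both directions. Of 19 genes for hydrogen peroxide removal inside cells, 2 chloroplast ascorbate peroxidases were measured, and neither passed limma's test or had an unadjusted p under 0.05. SAPX stood at 9.55 and 9.25 at low oxygen and at 9.76 and 9.58 at normal oxygen.

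Of 20 genes of monolignol synthesis, which makes the substrates of lignin peroxidases, 3 were measured. CCR2, a cinnamoyl-CoA reductase gene linked to defence, rose to 8.71 and 8.52 at low oxygen, against 6.46 and 6.37 at normal oxygen (log2 change 2.20, adjusted p = 2.8e-05). HCT, which acts earlier in the pathway, was at 9.34 and 9.41 at low oxygen and at 10.93 and 10.63 at normal oxygen (log2 change -1.41, adjusted p = 2.8e-04). ALDH2C4, which makes ferulic and sinapic acid, had a change of 0.05 and did not pass. Of the 17 laccases, which also oxidise monolignols, only LAC16 was measured. It was dim, with a change of -0.31 (adjusted p = 0.0458), and this call ended without each of the 4 arrays in turn.

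The Casparian strip, a lignin band of the endodermis, is laid down by a machinery that includes PER64, which was not analysed here. Of the 15 other listed genes of this barrier, 3 were measured, and 2 fell, where 16.3% of the 13333 genes did. GSO1, the receptor kinase that surveys the strip, stood at 7.08 and 7.11 at low oxygen, against 8.80 and 8.38 at normal oxygen (log2 change -1.50, SE 0.15, adjusted p = 4.2e-04). The kinase gene AT1G61590, which acts downstream of it, had a change of -0.55 (adjusted p = 0.0063). AT4G34600, which encodes a peptide ligand of that receptor, was at 8.42 and 8.64 at low oxygen and at 8.52 and 8.47 at normal oxygen, and did not pass.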

How the data were processed

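The authors' deposited table holds log2 values for 22810 probe sets on 4 one-colour arrays. Per the submitters' processing notes, RMA and limma were used, with versions and settings not given in the sources used here. RMA equalises arrays, so a change shared by all transcripts would not show.

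Here 64 control probe sets were left out, and limma 3.58.1 in R 4.3.3 (lmFit, eBayes, no block) tested the other 22746, with 2 residual and 4.63 prior degrees of freedom. Genes were named from the platform's table and the RefSeq table of TAIR10.1: 13484 of the 13513 probe sets of 1 gene had a locus, 503 read several genes and 8730 were not listed. Each gene took its probe set with the highest mean. Neighbouring genes were taken from the order of protein-coding genes in the RefSeq table, and no coordinates or sequences are given.

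The members and all lists were chosen with earlier results of these data known, and the family was first drawn up once large falls of some of its genes were known. Named in full were up to 8 rises and 8 falls and the members of 3 role lists (lignin, reproductive and seed, stress and nutrient). Context lists gave up to 2 genes per direction, or the brightest where none passed. Array values of further members, AT5G64120, Prx37, ALDH2C4 and AT4G34600 were added after they were seen. On simulated data with 200 probe sets changed, log2 changes of 0.5, 1, 2 and 3 were recovered for 0%, 92.0%, 94.0% and 100.0%, with 10 false calls among 153. In the data 7593 of 22746 probe sets were called, so the same adjustment is less strict there. The simulated percentages therefore do not describe how many changes of each size were recovered here. Alternatives changed the variance prior, normalization, replicate block, level filter, threshold, probe sets per gene and arrays used. Replicate numbers shared by the groups are not stated to pair samples. The p-values rest on the spread between the 2 pools per group, combined with limma's variance prior from all probe sets. That prior carries more weight, with 4.63 degrees of freedom against 2.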

Additional observations from a re-analysis of the deposited data

Results flagged for a closer look

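Probe sets shared by 2 genes stood outside the comparison of single genes, and 2 of those given here differed from their normal oxygen level. Over all 22746 probe sets, 33.4% were called. The probe set for AT2G18140 and AT2G18150 was at 9.92 and 10.16 on the low oxygen arrays and at 9.35 and 9.67 on the normal oxygen arrays, which is higher by 0.53 (SE 0.14, adjusted p = 0.0292 in limma). The probe set for AT2G38380 and AT2G38390 was at 11.73 and 11.77 at low oxygen and at 12.21 and 12.28 at normal oxygen, with a log2 change of -0.49 (SE 0.10, adjusted p = 0.0081). Such a signal cannot be divided between the genes of a pair. The probe set for AT4G37520 and AT4G37530, at 10.56 and 10.96 at low oxygen against 10.29 and 10.35 at normal oxygen, had a change of 0.44 and did not pass (adjusted p = 0.0589). That shared by AT3G17070 and AT3G42570 was dim, with a change of -0.25 (adjusted p = 0.1250).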

How the results depend on the processing

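The 27 calls among the members (5 higher, 22 lower) became 12 (2 higher, 10 lower) with at least a 2-fold change as well. Over the 29 members that reached 6 in at least 1 group mean, 3 were higher and 21 lower. Their median change was -0.68, against -0.37 over all 44. Of the 29, 7 reached 6 at normal oxygen only, so this filter itself lets in lower members and part of the shift is built in. Without each array in turn there were 20 to 27 calls and a median of -0.46 to -0.29. The replicate block left 24 calls (4 higher, 20 lower), without AT4G16270, AT3G21770 and AT3G03670. Deviations of arrays with the same number correlated at 0.02 over probe sets, so the numbers are not taken as pairs. Of 22 members described in full, PER36 changed sign without low oxygen replicate 1 (0.036, adjusted p = 0.9007, in a leave-one-out range of -0.27 to 0.036), and no called one did under the alternatives run. Over all probe sets, 7593 calls (3594 higher, 3999 lower) became 2385 (1174 and 1211) with the fold and 4088 (1911 and 2177) when probe sets were averaged per gene, for which fewer features were tested. At an adjusted p under 0.01 there were 5062 calls (2361 higher, 2701 lower), with 20 among the members (4 higher, 16 lower). The barrier list kept 1 of 2 calls with the fold. The laccase call was lost (0 calls) with median centring, the replicate block, the level filter, which dropped the gene, the stricter threshold, the fold, and without each array (0 in each).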
